A study of Homo sapiens with 18 samples.

Results

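The results below concern 10 genes of the antioxidant response that the transcription factor NRF2 governs, chosen by name: NFE2L2, which encodes NRF2 itself, HMOX1, NQO1, GCLM, GCLC, TXNRD1, SRXN1, SLC7A11, SOD2 and TXN. Each of the 10 symbols matched 1 of the 57500 gene identifiers counted, and all 10 passed the filter on low counts in every comparison. They were followed over 18 RNA-seq libraries of THP-1, a monocyte-like cell line derived from human leukaemia, in 6 groups of 3 libraries. The study asked what the orphan nuclear receptors NR4A2 and NR4A3 do in monocytes at rest and during inflammation. All cells carried a lentiviral short hairpin and were kept under puromycin: shNT cells a non-target hairpin, shNR4A2 cells a hairpin against NR4A2, and shNR4A3 cells a hairpin against NR4A3. Every group spent 2 h in buffered DMEM with serum; the LPS groups then received bacterial lipopolysaccharide at 2.5 μg/ml for a further 2 h, and the control groups did not. Each hairpin is represented by 1 stable line, so that an effect of the hairpin and a trait of the line cannot be told apart. Libraries of a group came from independent experiments according to the study's figure captions. Total counts ran from 16171161 to 23929138 per library, with a median of 19639071.

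NRF2 is held in the cytoplasm by KEAP1, which marks it for destruction. Oxidants and electrophiles modify KEAP1, and NRF2 then accumulates, enters the nucleus, pairs with a small MAF protein and binds antioxidant response elements. The pathway therefore acts mainly on NRF2 protein, which was not measured here, and its activity is usually read from the transcripts of its targets. Among the genes followed, NQO1 encodes a quinone reductase and HMOX1 the enzyme that opens heme. GCLC and GCLM are the catalytic and modifier subunits of the enzyme that begins glutathione synthesis, for which SLC7A11 imports cystine. TXN is thioredoxin, TXNRD1 recycles it with NADPH, and SRXN1 restores over-oxidised peroxiredoxins. SOD2, the mitochondrial superoxide dismutase, is also a well-known target of NF-kappaB, the factor that lipopolysaccharide sets in motion.

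The antioxidant response element core is shown here because it is the sequence that NRF2 is known to bind. RefSeq promoter windows of 300 bases, from 250 before to 50 after an annotated start on GRCh38.p14, were matched for 8 of the 10 genes, all but HMOX1 and SLC7A11. The core TGACNNNGC, searched on both strands, lay in 3 of the 13 windows of these genes, which belong to GCLM and TXNRD1, and in 13.3% of all 35116 windows. Capitals mark the core in the lines below, each written 5′ to 3′ in the gene's direction with 10 bases on either side.
GCLM, chr1:93909446-93909474, minus strand, core on the opposite strand to the gene: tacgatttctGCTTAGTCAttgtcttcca
TXNRD1, chr12:104286920-104286948, plus strand, core on the opposite strand to the gene: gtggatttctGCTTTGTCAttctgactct
TXNRD1, chr12:104215670-104215698, plus strand, core on the gene's strand: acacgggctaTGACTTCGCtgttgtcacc
TXNRD1, chr12:104215761-104215789, plus strand, core on the opposite strand to the gene: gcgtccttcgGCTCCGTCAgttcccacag
The GCLM core began 34 bases before the annotated start. The first TXNRD1 core listed began 102 bases before the start of its window's transcript, and the other 2 began 99 and 8 bases before the start of another. The monomer site of NR4A receptors, NBRE, spelled AAAGGTCA and searched on both strands, was in none of the 13 windows and in 1.22% of all windows. A match in a window is a description of its letters only, and a missing one says nothing about more distant elements.

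The hairpin targets were examined first. TPM here is transcript abundance, the count divided by gene length and scaled by the library's sum of these quotients. NR4A2 stood at 62.2, 74.7 and 51.3 TPM in shNT cells with LPS and at 20.5, 28.3 and 14.8 TPM in shNR4A2 cells with LPS. Its log2 fold change was -1.52 (SE 0.19, edgeR quasi-likelihood adjusted p = 0.0026). NR4A3 stood at 30.9, 32.3 and 31.95 TPM in shNT cells with LPS and at 17.03, 18.2 and 16.7 TPM in shNR4A3 cells with LPS, a log2 fold change of -0.82 (SE 0.08, edgeR adjusted p = 0.00056). Both targets were lower in their own line with LPS without overlap, as were 16.4% and 17.5% of all genes tested in shNR4A2 and shNR4A3 cells. In the unstimulated state NR4A2 read 4.16, 2.83 and 4.08 TPM in shNT and 1.82, 1.63 and 2.41 TPM in shNR4A2 cells (log2 fold change -0.91, SE 0.23, edgeR adjusted p = 0.036), a call lost without shNT replicate 1 or 3 or shNR4A2 replicate 1 or 2 (highest adjusted p = 0.12). NR4A3 was scarce there, with 20, 21 and 17 reads in shNT and 5, 3 and 1 reads in shNR4A3 libraries. NR4A2 in shNR4A3 cells with LPS had a log2 fold change of -0.36 (SE 0.16, edgeR adjusted p = 0.20, or 0.0013 with the replicate number as a block).

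Identity of the cells was checked against marker genes. All 8 monocyte markers examined were detected in every library, with SPI1 or LYZ the most abundant. Their summed level lay between 992 and 1271 TPM in shNT, between 1529 and 1903 TPM in shNR4A2 and between 1774 and 2290 TPM in shNR4A3 libraries, and so moved with the line. LYZ, the lysozyme gene, read between 177 and 202 TPM in unstimulated shNT, between 462 and 709 TPM in shNR4A2 and between 708 and 1040 TPM in shNR4A3 libraries. Markers of T cells summed to at most 1.04 TPM in a library, those of erythroid cells to 0.28 and of epithelial cells to 1.81 TPM, and the B cell marker MS4A1 was at 0 in 4 of 6 groups. The share of mitochondrial reads lay between 1.05% and 2.19%. What part the difference in monocyte markers has in the results was not tested, and in bulk RNA fewer cells expressing a gene and less RNA per cell cannot be told apart.

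Levels of the 10 genes covered a wide range in unstimulated shNT cells. TXN was the most abundant at 450.2 ± 26.9 TPM (SD, n = 3), followed by TXNRD1 at 189 ± 23.2 and HMOX1 at 129 ± 45.6. GCLM (82.3 ± 17.6 TPM), NFE2L2 (74.3 ± 6.37 TPM), NQO1 (70.8 ± 11.2 TPM) and SLC7A11 (69.9 ± 19.0 TPM) followed within each other's spread. SOD2 (15.6 ± 1.68 TPM), GCLC (14.8 ± 0.99 TPM) and SRXN1 (9.14 ± 1.30 TPM) were the lowest, and SOD2 and GCLC did not differ beyond their spread. In the presence of LPS the order in shNT cells began with SOD2 at 1249 ± 166 TPM, before TXN at 442 ± 28.7 and NFE2L2 at 366 ± 18.6. Between the lowest and the highest of the 6 group means SOD2 ranged 96.7-fold, NFE2L2 5.41-fold and SRXN1 2.89-fold, SLC7A11 2.57-fold, HMOX1 2.52-fold and NQO1 2.31-fold, whereas TXN ranged only 1.10-fold.

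**Figure D1:**
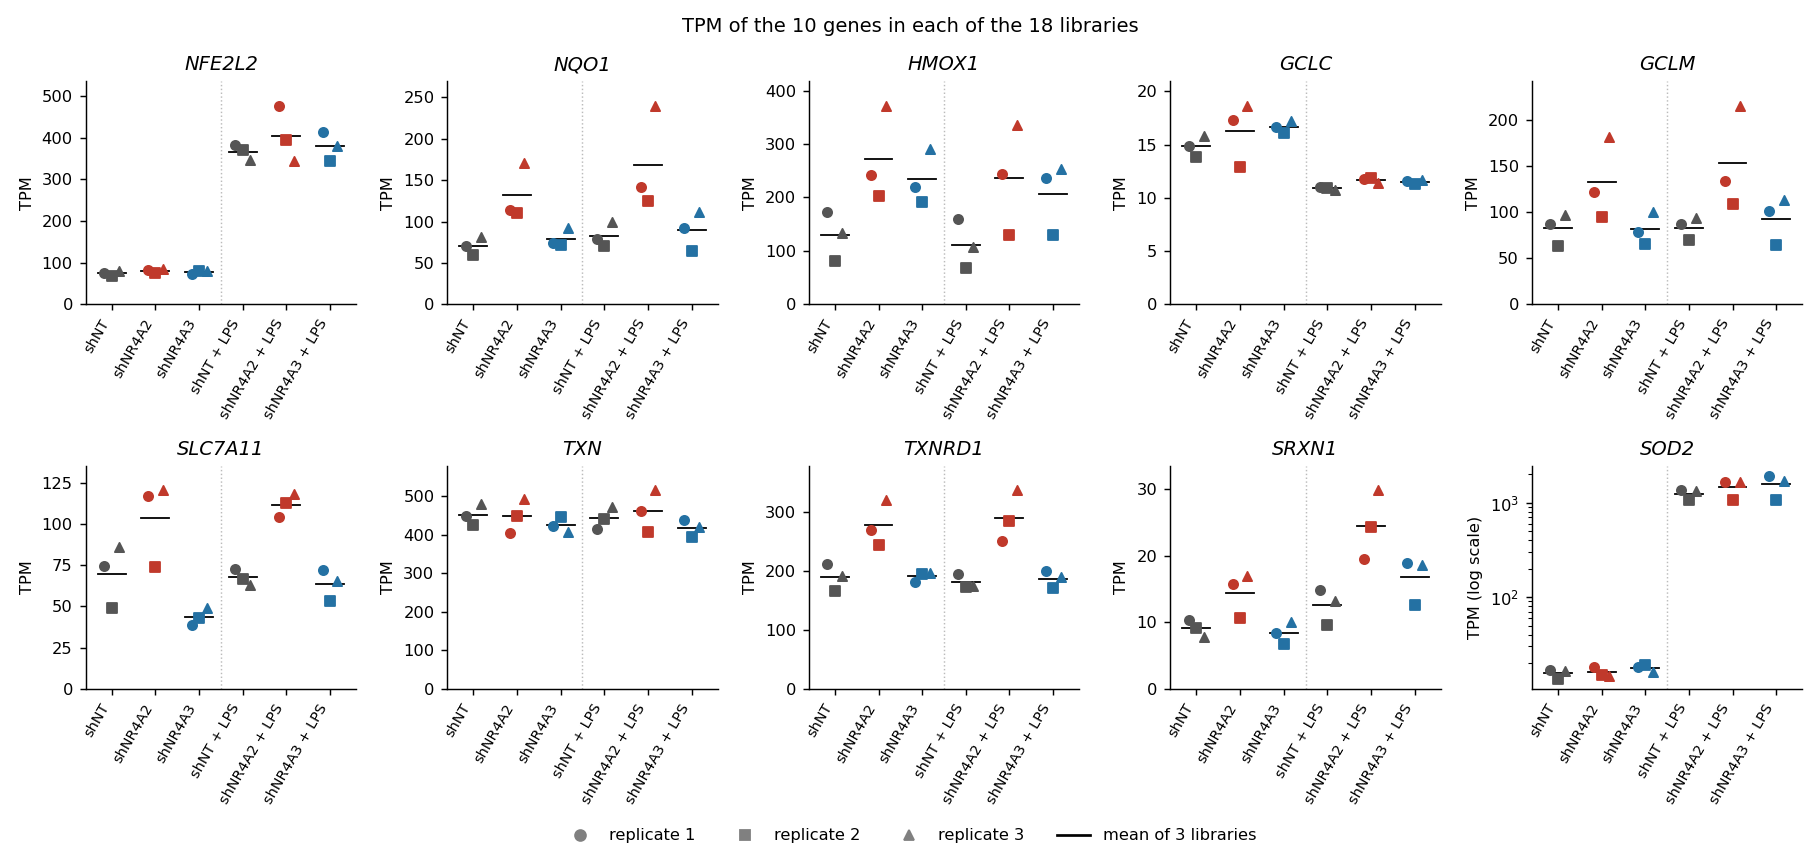
TPM of each gene (vertical axes, from 0 except for SOD2, which has a log axis) in the 6 groups (horizontal axis); each point is 1 library, its colour gives the line, its shape the replicate number and the black line is the mean of 3 libraries. NFE2L2 and SOD2 separate by LPS in every line, whereas NQO1 and TXNRD1 separate the shNR4A2 libraries from the shNT libraries in both states.

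To see how the genes answered LPS, each line was compared with its own unstimulated libraries. NFE2L2 and SOD2 rose in every line with the largest fold changes of the 10, SRXN1 rose less in every line, and HMOX1, GCLM, TXNRD1 and TXN passed the test without a replicate block in none. Called higher were 4 of 10 genes in shNT cells, against 11.6% of the 15711 genes tested there. In shNR4A2 cells 3 of 10 were called higher (9.23% of 15772 genes tested), and in shNR4A3 cells 4 were called higher and 1 lower (13.1% and 15% of 15342). A call here is a Benjamini-Hochberg adjusted p under 0.05 over all genes tested. The median log2 fold change of the 10 genes was 0.22 in shNT, 0.43 in shNR4A2 and 0.42 in shNR4A3 cells, where the medians of all genes tested were -0.01, -0.02 and -0.01. TPM placed the median gene lower than edgeR's scaling did after LPS, by a log2 difference of -0.22, -0.27 and -0.23 in the 3 lines in that order, so that fold changes under LPS are given from edgeR and TPM serve for levels.

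NFE2L2 (chr2:177227595-177392697, GRCh38, as are the positions that follow) stood at 75.4, 67.5 and 80.0 TPM in unstimulated shNT libraries and at 383, 370 and 346 TPM with LPS. Its edgeR log2 fold change was 2.52 (SE 0.08, adjusted p = 2.6e-11). In shNR4A2 cells it went from 81.1, 73.9 and 84.8 TPM to 477, 395 and 344 TPM, a log2 fold change of 2.61 (SE 0.15, edgeR adjusted p = 8.5e-08). In all 3 lines every LPS library lay above every unstimulated one. This was so for 8.43%, 7.87% and 10.5% of all genes tested in shNT, shNR4A2 and shNR4A3 cells. In shNR4A3 cells the values were 72.3, 79.1 and 80.1 TPM without and 415, 345 and 381 TPM with LPS, a log2 fold change of 2.53 (SE 0.11, edgeR adjusted p = 3.8e-08). The transcript of NRF2 thus rose 5.74-, 6.12- and 5.79-fold in the 3 lines.

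SOD2 (chr6:159669057-159762529) rose from 16.8, 13.7 and 16.3 TPM to 1353, 1057 and 1336 TPM in shNT cells, 93.4-fold (log2 6.55, SE 0.14, edgeR adjusted p = 4.6e-13). From 18.1, 15.1 and 14.7 TPM it reached 1641, 1069 and 1648 TPM in shNR4A2 cells, 110.5-fold (log2 6.79, SE 0.24, edgeR adjusted p = 1.3e-09). In every line replicate 2 was the lowest of the LPS libraries, between 1057 and 1070.1 TPM. In shNR4A3 cells SOD2 went from 18.005, 18.9 and 15.98 TPM to 1931, 1070.1 and 1678 TPM, 105-fold (log2 6.71, SE 0.25, edgeR adjusted p = 1.1e-08). SOD2 overlaps WTAP and ACAT2 on the opposite strand, and NFE2L2 overlaps AGPS; whether the counting used strand was not given in the sources used here, so that reads in the shared stretches may belong to either gene. The files gave SOD2 a position that differs from GENCODE 29, unlike those of the other 9 genes, and its TPM rests on the deposited length.

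SRXN1 (chr20:646615-653370), the peroxiredoxin reductase, was scarce in unstimulated cells. It read 10.4, 9.18 and 7.82 TPM in shNT controls against 14.8, 9.62 and 13.2 TPM with LPS, and these groups overlapped (log2 fold change 0.67, SE 0.19, edgeR adjusted p = 0.018). In shNR4A2 cells it rose from 15.7, 10.6 and 16.95 TPM to 19.5, 24.3 and 29.8 TPM (log2 fold change 1.04, SE 0.20, edgeR adjusted p = 0.0029). In shNR4A3 cells it rose from 8.42, 6.79 and 10.0 TPM to 19.0, 12.6 and 18.7 TPM (log2 fold change 1.23, SE 0.22, edgeR adjusted p = 0.0016). Both knockdown lines separated without overlap, where 7.87% and 10.5% of all genes lay wholly higher with LPS in shNR4A2 and shNR4A3 cells. The call in shNT cells was lost on leaving out either of 4 single libraries, control replicate 2 or 3 or LPS replicate 1 or 3 (highest adjusted p = 0.076).

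The cystine importer SLC7A11 (chr4:138164097-138242349) was called under LPS in shNR4A3 cells, where it rose from 38.5, 43.2 and 49.2 TPM to 72.2, 53.2 and 65.2 TPM (log2 fold change 0.78, SE 0.14, edgeR adjusted p = 0.0017). Its values in shNT cells were 74.8, 49.0 and 86.0 TPM without and 72.9, 66.9 and 63.1 TPM with LPS (log2 fold change 0.18, SE 0.14, edgeR adjusted p = 0.39). In shNR4A2 cells they were 117, 73.7 and 120.5 TPM without and 104, 113 and 118 TPM with LPS (log2 fold change 0.38, SE 0.16, edgeR adjusted p = 0.13, or 0.023 with the replicate number as a block). The mean of shNR4A3 libraries without LPS was 43.6 TPM, where those of shNT and shNR4A2 were 69.9 and 104 TPM.

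NQO1 was called higher with LPS in shNT cells, from 70.9, 59.6 and 81.9 TPM to 78.5, 70.0 and 99.1 TPM, which overlap (log2 fold change 0.45, SE 0.14, edgeR adjusted p = 0.026). The log2 fold changes of 0.64 (SE 0.24) in shNR4A2 cells and 0.41 (SE 0.19) in shNR4A3 cells missed the threshold at edgeR adjusted p = 0.080 and 0.13. Both passed once the replicate number entered the model as a block, at adjusted p = 0.0017 and 0.0096; libraries of the same number deviated together in these comparisons. With that block 7 of the 10 genes were called under LPS in each of these lines, where it called 30.1% and 39.4% of all genes tested. In shNT cells the NQO1 call was lost on leaving out control replicate 1 or 2 or LPS replicate 3 (highest adjusted p = 0.13), and with all 18 libraries in 1 fit (adjusted p = 0.22).

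GCLC (chr6:53497341-53616970), the catalytic subunit of glutathione synthesis, was the single gene called lower. It went from 16.7, 16.1 and 17.2 TPM to 11.6, 11.3 and 11.6 TPM in shNR4A3 cells (log2 fold change -0.30, SE 0.10, edgeR adjusted p = 0.044). The log2 fold changes of -0.23 (adjusted p = 0.098) in shNT and -0.21 (adjusted p = 0.37) in shNR4A2 cells did not pass in edgeR. Mean TPM also fell there, from 14.8 to 10.9 in shNT and from 16.3 to 11.7 in shNR4A2 cells. Every LPS library lay below every unstimulated one in all 3 lines. The same held for 40.1%, 38.1% and 41.1% of all genes tested in shNT, shNR4A2 and shNR4A3 cells. The call in shNR4A3 cells was lost under a 2-fold minimum and under 8 of the 11 other alternatives, and DESeq2 gave an adjusted p of 0.097.

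HMOX1 (chr22:35380361-35394214) was not called with LPS in any line. It stood at 172, 81.5 and 133 TPM in shNT controls and at 160, 67.2 and 106 TPM with LPS. The edgeR log2 fold change was 0.02 (SE 0.27, adjusted p = 0.98), and those in shNR4A2 and shNR4A3 cells were 0.09 (SE 0.30) and 0.06 (SE 0.24). Replicate 2 was the lowest HMOX1 library in each of the 6 groups. GCLM, TXNRD1 and TXN, also not called, had values between log2 fold changes of 0.15 and 0.49. With the replicate number as a block GCLM was called in shNR4A2 and shNR4A3 cells (adjusted p = 0.0028 and 0.0027), and in shNT cells, where the numbers did not pair the libraries (adjusted p = 0.015). TXNRD1 was called with the block in shNR4A2 cells (adjusted p = 0.018).

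**Figure D2:**
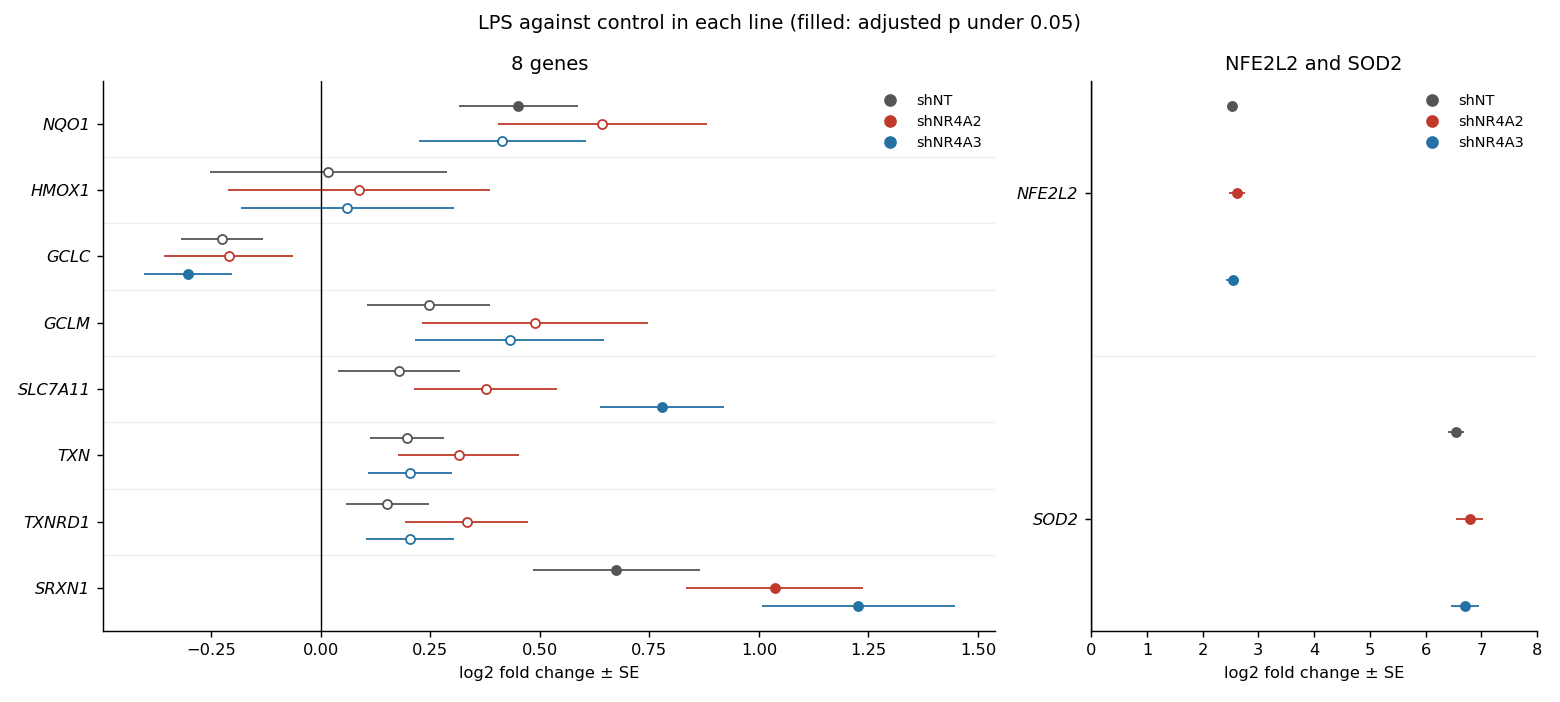
Log2 fold change with LPS (horizontal axes, ± SE from edgeR) of each gene in shNT, shNR4A2 and shNR4A3 cells; filled points have an adjusted p under 0.05, and the 2 panels differ in scale. NFE2L2 and SOD2 sit near 2.5 and 6.7 in all 3 lines, SRXN1 is filled in all 3, and HMOX1 lies near 0 in each.

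Whether the lines differed in their response to LPS was tested as an interaction. No gene passed in edgeR without a replicate block, among these 10 or among the 16674 and 16428 genes tested, for shNR4A2 and shNR4A3 against shNT cells (0% called in both). At an unadjusted p under 0.05 there were 365 and 824 genes. DESeq2 called 2 and 10 genes and edgeR with the block 8 and 22, and none of these was among the 10. SLC7A11 in shNR4A3 cells had the largest value of the 10 genes, a log2 difference in response of 0.60 (SE 0.23, edgeR adjusted p = 0.94); without the filter on low counts its adjusted p was 0.0070. For shNR4A2 cells all 10 differences lay between 0.02 and 0.37.

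In the unstimulated state HMOX1, NQO1 and TXNRD1 were higher in shNR4A2 than in shNT cells, by 2.12-, 1.86- and 1.47-fold. These 3 of 10 genes were called higher and none lower, where 3.63% of the 15800 genes tested were called higher. GCLM, SRXN1 and SLC7A11 had log2 fold changes of 0.69, 0.66 and 0.58 that did not pass in edgeR without a block. DESeq2 called GCLM, SRXN1 and SLC7A11, at adjusted p = 0.0060, 0.039 and 0.030. NFE2L2 itself did not pass in either. The median of the 10 was 0.57, against -0.00 over all genes tested. A block for the replicate number raised the edgeR count to 6, adding GCLM, SRXN1 and SLC7A11, where it called 12.1% of all genes higher.

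In the presence of LPS the genes called higher in shNR4A2 cells were NQO1, TXNRD1, SRXN1 and SLC7A11, by 2.13-, 1.67-, 2.03- and 1.72-fold. They were 4 of 10, none was called lower, and 4.31% of the 15590 genes tested were called higher. The median log2 fold change of the 10 was 0.76, against -0.00 over all genes. The block called 7 of 10 higher (15.2% of all genes), adding HMOX1, GCLM and SOD2. The comparisons of shNR4A2 and of shNR4A3 cells with shNT cells share the shNT libraries.

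NQO1 (chr16:69706996-69726951) was called in both states. In unstimulated shNR4A2 libraries it read 114, 109.8 and 171 TPM, all above the 70.9, 59.6 and 81.9 TPM of shNT cells (log2 fold change 0.90, SE 0.16, edgeR adjusted p = 0.0058). With LPS it read 142, 125 and 240 TPM, again all above the 78.5, 70.0 and 99.1 TPM of shNT cells (log2 fold change 1.09, SE 0.25, edgeR adjusted p = 0.033). Of all genes tested, 13.7% without and 10.8% with LPS had every shNR4A2 library above every shNT library. The highest NQO1 library was replicate 3 in each of the 4 groups. The unstimulated call was lost under a 2-fold minimum and held under the 11 other alternatives; that with LPS was lost on leaving out shNT replicate 1 or 2 or shNR4A2 replicate 1 (highest adjusted p = 0.13).

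Thioredoxin reductase was called in both states. TXNRD1 (chr12:104215779-104350305) read 270, 244 and 320 TPM in unstimulated shNR4A2 cells and 211, 165 and 191 TPM in shNT cells (log2 fold change 0.56, SE 0.11, edgeR adjusted p = 0.015). With LPS the values were 250.04, 284 and 336 TPM against 194, 173 and 174 TPM (log2 fold change 0.74, SE 0.12, edgeR adjusted p = 0.0088). Neither pair of groups overlapped, as for the 13.7% and 10.8% of all genes given above. The unstimulated call was lost without shNT replicate 2 or 3 and the call with LPS without shNT replicate 2, at highest adjusted p = 0.069 and 0.050. Its substrate TXN (chr9:110243811-110256640) did not pass in either state, with log2 fold changes of -0.00 and 0.12, and read 404, 449 and 493 TPM in unstimulated shNR4A2 against 448, 425 and 478 TPM in shNT cells.

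HMOX1 read 243, 203 and 372 TPM in unstimulated shNR4A2 cells, above the 172, 81.5 and 133 TPM of shNT cells in every library (log2 fold change 1.08, SE 0.24, edgeR adjusted p = 0.022). The call was lost in DESeq2 (adjusted p = 0.051), with all 18 libraries in 1 fit (adjusted p = 0.081) and on leaving out replicate 3 of either group. With LPS the 244, 129 and 335 TPM of shNR4A2 cells overlapped the 160, 67.2 and 106 TPM of shNT cells, and the log2 fold change of 1.15 (SE 0.38) gave an edgeR adjusted p of 0.10, or 1.4e-14 with the block. Replicate 2 was the lowest in both lines.

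For the 2 subunits of glutamate-cysteine ligase the values stood as follows. GCLM (chr1:93885205-93909456) read 122, 94.8 and 182 TPM against 87.0, 62.7 and 97.0 TPM in the unstimulated state (log2 fold change 0.69, SE 0.20, edgeR adjusted p = 0.061, or 9.0e-05 with the block). With LPS it read 134, 109 and 215 TPM against 86.6, 69.8 and 93.2 TPM, without overlap (log2 fold change 0.94, SE 0.25, edgeR adjusted p = 0.051, or 1.4e-13 with the block). DESeq2 called GCLM without and with LPS, at adjusted p = 0.0060 and 0.0015. GCLC lay at 17.3, 12.9 and 18.6 TPM in unstimulated shNR4A2 cells against 14.8, 13.8 and 15.8 TPM, and its log2 fold changes of 0.14 and 0.16 did not pass in either state, also with the block. A test of the difference between the subunits was not made.

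SRXN1 and SLC7A11 were called in the presence of LPS. SRXN1 with LPS read 19.5, 24.3 and 29.8 TPM against 14.8, 9.62 and 13.2 TPM (log2 fold change 1.02, SE 0.20, edgeR adjusted p = 0.019), and the call was lost without shNT replicate 2 or 3 (highest adjusted p = 0.062). SLC7A11 with LPS read 104, 113 and 118 TPM against 72.9, 66.9 and 63.1 TPM (log2 fold change 0.78, SE 0.09, edgeR adjusted p = 0.0022), a call that was lost under a 2-fold minimum and held under the 11 other alternatives. Neither pair overlapped. Without LPS the same genes gave log2 fold changes of 0.66 (SE 0.20, edgeR adjusted p = 0.072) and 0.58 (SE 0.19, edgeR adjusted p = 0.10), or adjusted p = 0.010 and 1.9e-05 with the block.

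NFE2L2 itself was not called. Its log2 fold change in shNR4A2 against shNT cells was 0.11 (SE 0.09, edgeR adjusted p = 0.55) in the unstimulated state and 0.21 (SE 0.13, edgeR adjusted p = 0.39) with LPS. Taken by replicate number, HMOX1, NQO1, GCLM, TXNRD1, SRXN1 and SLC7A11 had a TPM ratio of shNR4A2 to shNT above 1 in 3 of 3 pairs in both states, as had 14.8% of the 15058 genes tested in both. The lowest of these ratios was 1.15, for SRXN1 in replicate 2 without LPS, and the highest 3.15, for HMOX1 in replicate 3 with LPS. NFE2L2 ratios lay between 0.99 and 1.25.

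**Figure D3:**
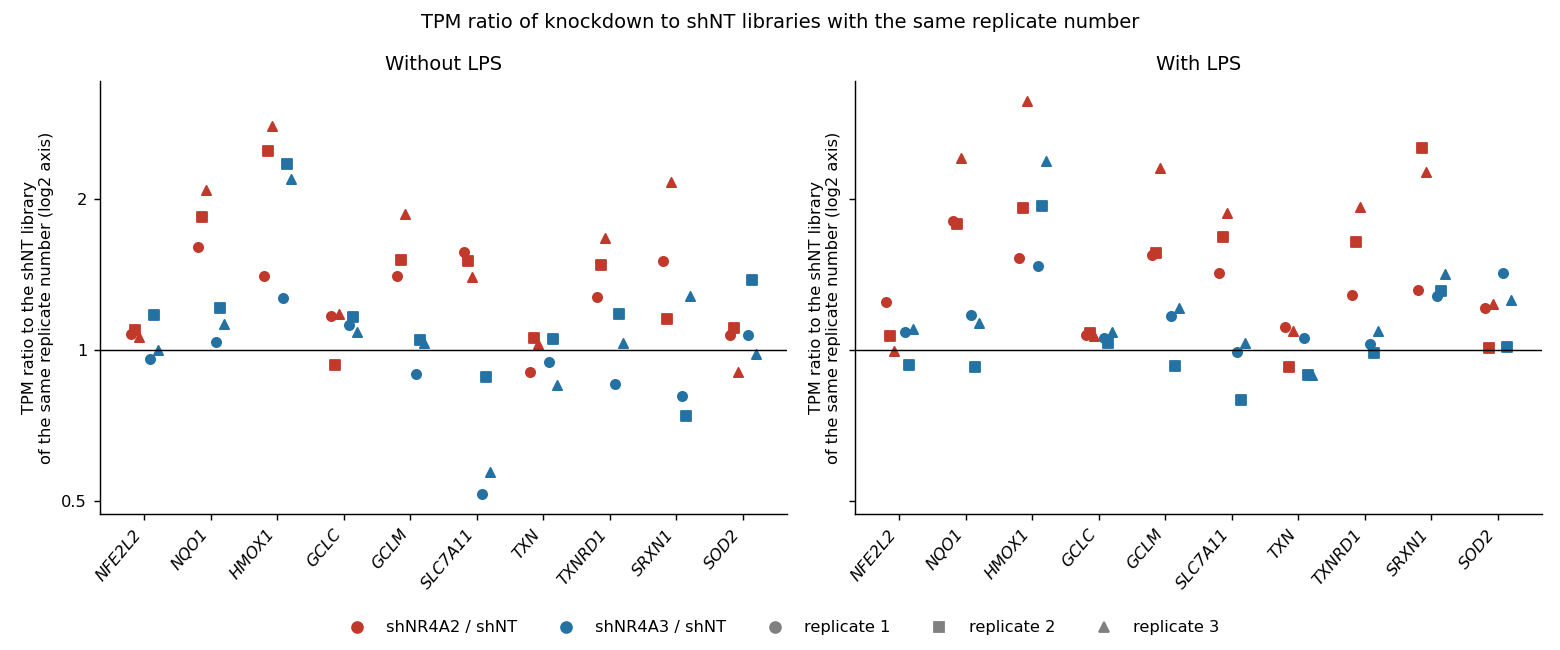
TPM ratio of each knockdown library to the shNT library with the same replicate number (vertical axis, log2 spacing, line at 1) for each gene, without LPS and with LPS; the shape gives the replicate number. The shNR4A2 points of HMOX1, NQO1, GCLM, TXNRD1, SRXN1 and SLC7A11 all lie above 1, and the shNR4A3 points do so in both states for HMOX1 and GCLC.

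In shNR4A3 against shNT cells 2 of the 10 genes were called in the unstimulated state, HMOX1 higher and SLC7A11 lower, 1 of 10 each, where 3.91% and 3.32% of the 15322 genes tested were called higher and lower. With LPS none of the 10 was called, at a share of 6.45% of 15578 genes called in either direction. HMOX1 was the 1 gene at an unadjusted p under 0.05 there, and DESeq2 called 0 of 10. With the block HMOX1, SRXN1 and SOD2 were called higher with LPS, 3 of 10 against 12.3% of all genes. The medians of the 10 were 0.08 and 0.16, against -0.00 and -0.01 over all genes.

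HMOX1 read 219, 192 and 291 TPM in unstimulated shNR4A3 cells against 172, 81.5 and 133 TPM in shNT cells, without overlap (log2 fold change 0.92, SE 0.21, edgeR adjusted p = 0.017). Of all genes tested there, 9.67% had every shNR4A3 library above every shNT library. For HMOX1 DESeq2 gave an adjusted p of 0.080 and edgeR with all 18 libraries in 1 fit 0.18. The call was also lost without shNT replicate 2 or shNR4A3 replicate 3. With LPS it read 236, 130.1 and 254 TPM against 160, 67.2 and 106 TPM (log2 fold change 0.96, SE 0.33, edgeR adjusted p = 0.11, or 7.1e-06 with the block).

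SLC7A11 was lower in unstimulated shNR4A3 cells. It read 38.5, 43.2 and 49.2 TPM against 74.8, 49.0 and 86.0 TPM in shNT cells (log2 fold change -0.62, SE 0.15, edgeR adjusted p = 0.021). Replicate 2 of shNT overlapped the highest shNR4A3 library, and the call was lost without shNT replicate 1 or 3 or shNR4A3 replicate 1 or 2 (highest adjusted p = 0.080). With LPS the values of 72.2, 53.2 and 65.2 TPM overlapped the 72.9, 66.9 and 63.1 TPM of shNT cells (log2 fold change -0.02, SE 0.13, edgeR adjusted p = 0.93). Replicate 2 of shNR4A3 lay below every shNT library there. SRXN1 with LPS had a log2 fold change of 0.49 (SE 0.22, edgeR adjusted p = 0.22, or 0.0060 with the block). NFE2L2 differed from shNT cells by log2 0.10 (SE 0.08) and 0.12 (SE 0.10) without and with LPS, both short of a call.

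**Figure D4:**
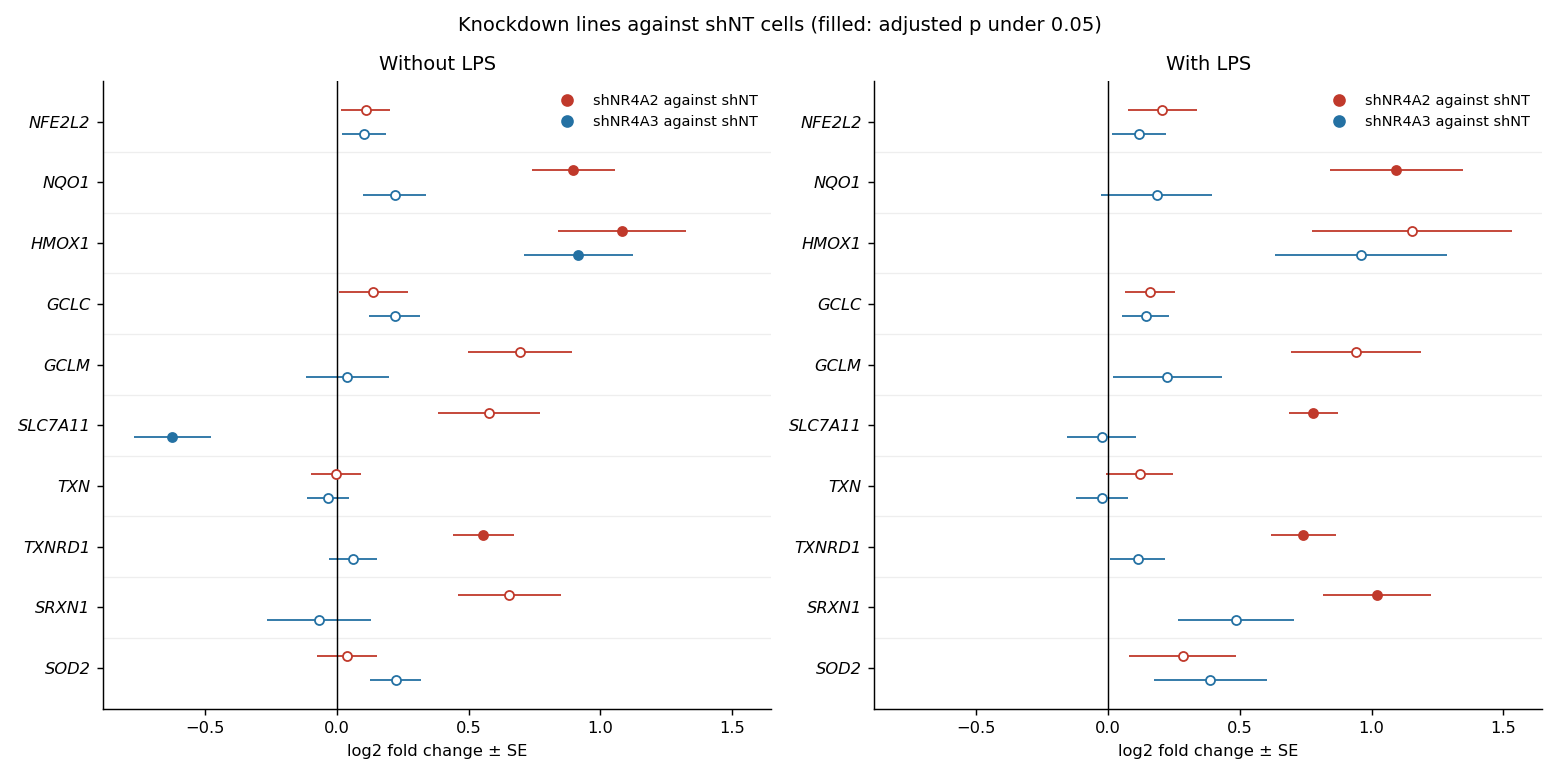
Log2 fold change of each gene (horizontal axes, ± SE from edgeR) in shNR4A2 and shNR4A3 cells against shNT cells, without LPS (left) and with LPS (right); filled points have an adjusted p under 0.05. NQO1 and TXNRD1 are filled for shNR4A2 in both panels, HMOX1 is filled for both lines without LPS, and SLC7A11 lies on opposite sides of 0 in the 2 lines without LPS.

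The 2 knockdown lines were also compared with each other, which uses no shNT library. In the unstimulated state SLC7A11, NQO1 and TXNRD1 were higher in shNR4A2 than in shNR4A3 cells, 3 of 10 genes where 1.94% of the 15584 genes tested were called higher. SLC7A11 differed by a log2 fold change of 1.20 (SE 0.16, edgeR adjusted p = 0.0011), NQO1 by 0.68 (SE 0.16, adjusted p = 0.038) and TXNRD1 by 0.50 (SE 0.11, adjusted p = 0.023) in edgeR. The NQO1 call was lost with all 18 libraries in 1 fit (adjusted p = 0.15) and without shNR4A2 replicate 3 or shNR4A3 replicate 1 or 2 (highest adjusted p = 0.14). That of TXNRD1 was lost without shNR4A2 replicate 3 or any 1 of the 3 shNR4A3 libraries (highest adjusted p = 0.10). With LPS SLC7A11 was called (log2 fold change 0.81, SE 0.14, edgeR adjusted p = 0.029), 1 of 10 against 1.27% of 15539 genes, and the call was lost without shNR4A2 replicate 1 or 3 or shNR4A3 replicate 3 (highest adjusted p = 0.13). NQO1 (log2 0.91, SE 0.29) and TXNRD1 (log2 0.63, SE 0.14) were not called with LPS, at edgeR adjusted p = 0.15 and 0.055, or 8.3e-06 and 0.00013 with the block. The block called 5 of 10 higher in each state, against 6.04% and 11.8% of all genes.

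Beyond these genes, 105 genes of the pathway and its surroundings were arranged in 10 lists, of which 102 were tested in most comparisons. In shNR4A2 against shNT cells 13 were called higher and 2 lower in the unstimulated state, and 17 higher and 2 lower with LPS. Of all genes tested 3.63% were higher and 2.82% lower without LPS, and 4.31% and 2.65% with LPS. The detoxification list, which holds many textbook NRF2 targets, had the most calls in each state and is also the longest. In shNR4A3 cells 12 were higher and 2 lower in the unstimulated state, and 12 higher and none lower with LPS. Of all genes tested there 3.91% were higher and 3.32% lower without LPS, and 3.99% were higher with LPS. With the replicate block the lists had 29 higher and 9 lower without and 37 higher and 6 lower with LPS in shNR4A2 cells, and 23 higher and 4 lower without and 36 higher and 5 lower with LPS in shNR4A3 cells. The block called 23.6% and 28.1% of all genes in shNR4A2 cells without and with LPS, where 12.1% and 15.2% of all genes were higher, and 14.8% and 21.8% in shNR4A3 cells, where 8.09% and 12.3% of all genes were higher. These shares over all genes, without and with the block, are the background of each list count given below for the same comparison.

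Of the detoxification and export genes, 18 were tested in shNR4A2 cells, and in the unstimulated state 7 rose and 1 fell, with a list median of 0.40 against -0.00 over all genes. AKR1C2, a ketosteroid reductase, rose most, from between 45.1 and 53.4 TPM in shNT to between 510.4 and 580.4 TPM in shNR4A2 libraries (log2 fold change 3.49, SE 0.11, edgeR adjusted p = 3.4e-08). OSGIN1, an oxidative stress-induced growth inhibitor, rose by log2 1.88 (SE 0.19), TRIM16L by 1.37 (SE 0.27) and AKR1C1 by 1.25 (SE 0.13). The AKR1C genes are near-identical copies, so that the division of reads between them is uncertain. The same holds for TRIM16 and TRIM16L. The exporter ABCC4, named after its values were seen, was the 1 that fell, with a log2 fold change of -0.49. With LPS 8 rose and 1 fell, and the median was 0.81. AKR1C2 (log2 3.65), OSGIN1 (log2 1.69), CBR3 (log2 1.63) and TRIM16 (log2 1.60) were the largest, although CBR3 stood at no more than 3.51 TPM in those libraries.

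**Figure D5:**
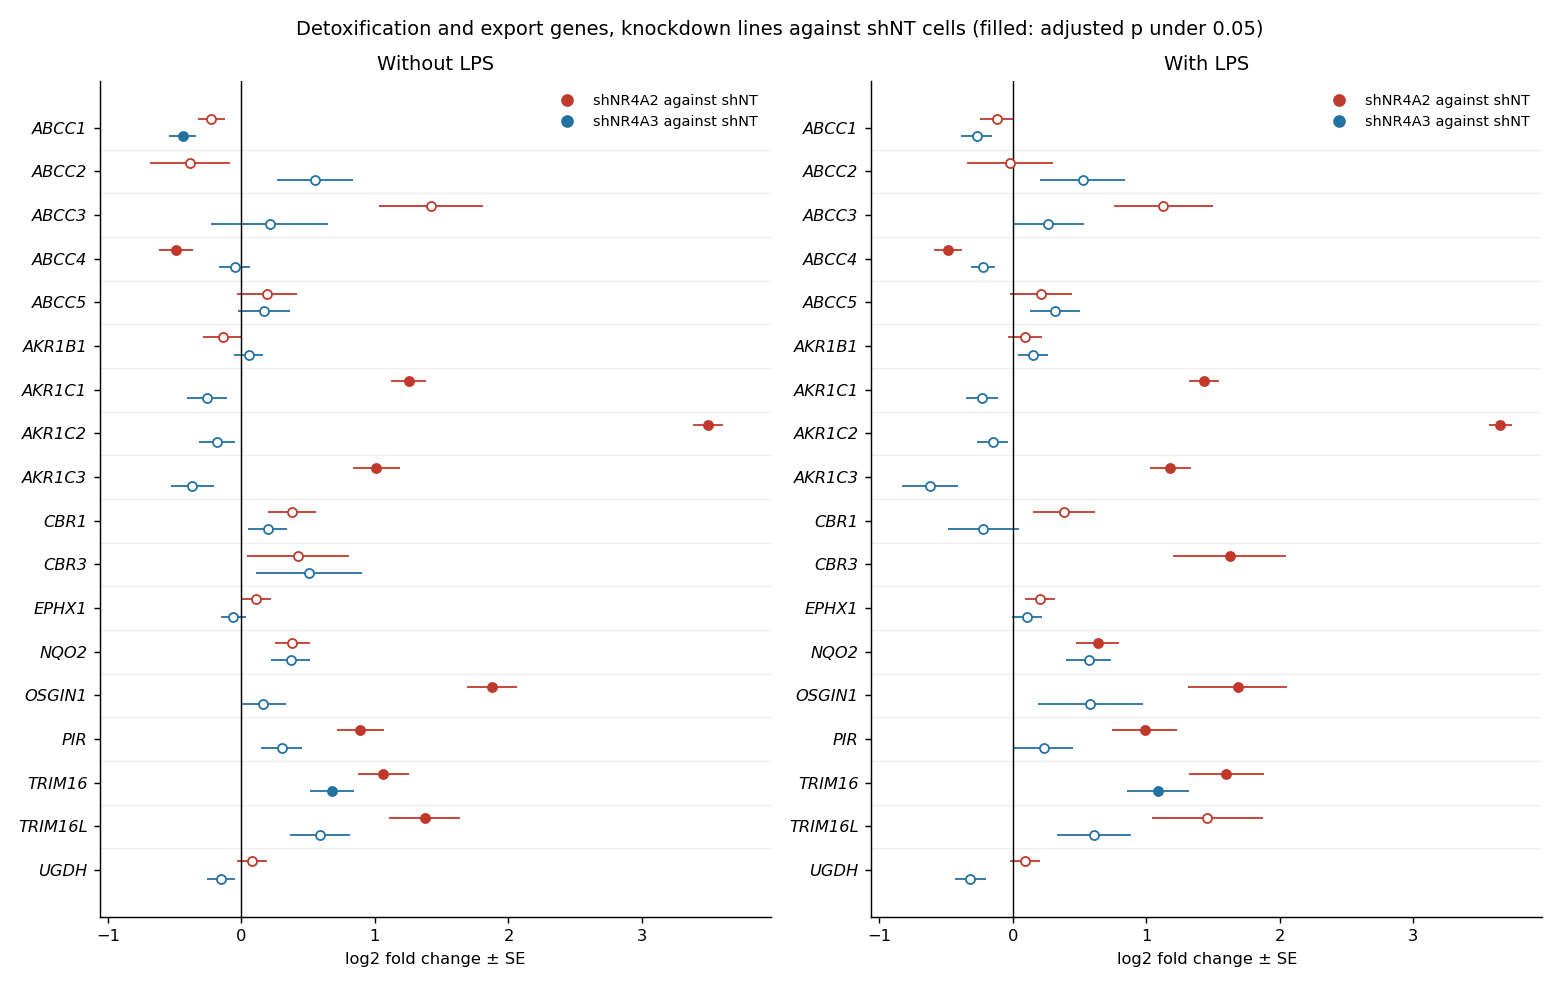
Log2 fold change (horizontal axes, ± SE from edgeR) of the detoxification and export genes in shNR4A2 and shNR4A3 against shNT cells, without LPS (left) and with LPS (right); filled points have an adjusted p under 0.05. AKR1C2 lies near 3.5 in shNR4A2 cells and near 0 in shNR4A3 cells, and TRIM16 is filled for both lines in both states.

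NADPH feeds TXNRD1 and NQO1, and the list of its supply and of the pentose phosphate pathway holds 6 enzymes. In shNR4A2 cells 2 of 6 were called higher in the unstimulated state and 3 of 6 with LPS, and none was lower; with the block 5 of 6 were called higher in each state, where it called 12.1% and 15.2% of all genes higher. Among them PGD, the 6-phosphogluconate dehydrogenase, rose by log2 0.51 (SE 0.11) without and 0.66 (SE 0.15) with LPS, and ME1, malic enzyme, by 0.87 (SE 0.21) with LPS. In shNR4A3 cells TKT, transketolase, was the gene called, at log2 0.43 and 0.39, and the block called 3 of 6 higher without and 6 of 6 with LPS.

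Among the regulators of NRF2, MAFG, a small MAF partner, rose in shNR4A2 cells by log2 0.51 (SE 0.11) and 0.64 (SE 0.14), and it was 1 of 11 called in each state (3.63% and 4.31% of all genes were higher), and the block called 3 higher without and 4 higher and 1 lower with LPS. KEAP1, named here for its role, was not called by edgeR without the block in a comparison with shNT cells. Unstimulated, KEAP1 read between 184.9 and 207.4 TPM in shNR4A2, between 178.5 and 184.5 in shNR4A3 and between 166.2 and 171.7 in shNT libraries. FYN, a kinase reported to drive NRF2 export from the nucleus, rose in shNR4A3 cells by 0.80 (SE 0.13) and 0.56 (SE 0.12). On the list of thioredoxins and peroxiredoxins PRDX1 rose by 0.36 and 0.51 in shNR4A2 cells, while PRDX6 fell, with log2 fold changes of -0.70 and -0.66, the 1 higher and the 1 lower of 12 in each state, or with the block 1 higher and 3 lower without and 1 higher and 1 lower with LPS. In shNR4A3 cells PRDX1 rose by 0.41 in the unstimulated state, 1 of 2 called of 12, and had a log2 fold change of 0.38 with LPS (edgeR adjusted p = 0.060, or 0.00059 with the block). Of the 12, edgeR called 0 in shNR4A3 cells with LPS, where 4 had an unadjusted p under 0.05, DESeq2 called 3 and the block 3 higher and 1 lower. FTL, ferritin light chain, rose by 0.36 in unstimulated shNR4A2 cells, as 1 of 9 heme and iron genes. With LPS 0 of these 9 were called there by edgeR or DESeq2, and 2 had an unadjusted p under 0.05. The block called 3 higher and 1 lower of the 9 without and 3 higher with LPS. Of the glutathione genes 0 of 15 were called by edgeR in unstimulated shNR4A2 cells, where 4 had an unadjusted p under 0.05 and DESeq2 called 1, and 1 of 15 was called with LPS, GPX1 at log2 0.47. The block called 3 higher and 1 lower of the 15 without and 4 higher and 1 lower with LPS. In shNR4A3 cells GPX1 was called in both states, at 0.54 and 0.40, among 2 and 1 of 15. Of the 3 superoxide and peroxide enzymes tested beside SOD2, 0 were called by edgeR or DESeq2 in any comparison with shNT cells, and 0 had an unadjusted p under 0.05.

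Lists next to the pathway were counted in the same way. In the NADPH oxidase list 1 of 6 was called higher in shNR4A2 cells in each state, and 2 and 3 of 6 in shNR4A3 cells without and with LPS, where 3.63%, 4.31%, 3.91% and 3.99% of all genes were higher in that order. With the block these became 2, 3, 3 and 4 of 6, and DESeq2 called 1 of 6 in unstimulated shNR4A3 cells. CYBB, the membrane subunit, rose in shNR4A3 cells by 1.00 (SE 0.24) and 1.45 (SE 0.29). Of the 10 genes answering to ATF4, a stress factor that also governs SLC7A11, none was called in shNR4A2 cells in either state by edgeR without the block or by DESeq2, and 2 without and 0 with LPS had an unadjusted p under 0.05; with the block edgeR called 2 higher and 1 lower without and 2 higher and 2 lower with LPS. In shNR4A3 cells 2 of 10 were called in each state: PHGDH (log2 0.55 and 0.58) and PSAT1 (log2 0.56 and 0.49), enzymes of serine synthesis, rose. The block called 3 higher and 1 lower of the 10 without and 3 higher and 2 lower with LPS there.

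Under LPS all 12 NF-kappaB response genes rose in every line, with list medians of 4.93 in shNT, 5.27 in shNR4A2 and 5.88 in shNR4A3 cells. IL1B rose by log2 7.62 (SE 0.17) in shNT cells and TNFAIP3 by 5.85 (SE 0.17). In the regulator list MAFF (log2 2.73, SE 0.20) and SQSTM1 (log2 1.67, SE 0.16), which sequesters KEAP1, rose in shNT cells and in both other lines. Of heme and iron genes FTH1, ferritin heavy chain, rose by 2.24 and FTL by 0.67 in shNT cells, while SLC40A1, the iron exporter ferroportin, fell with a log2 fold change of -1.15. TXNIP, which inhibits thioredoxin, fell with a log2 fold change of -1.09 and IDH1 with one of -1.14. Of the detoxification list 1 was called higher and 1 lower of 18 in shNT cells with LPS, OSGIN1 at 0.99 and CBR1 at -0.80, where 11.6% and 13.3% of all genes were. The ATF4 list had 4 higher and 2 lower of 10 there, led by ATF3 at 2.65.

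The genes whose pattern was nearest to that of the 3 widest-ranging genes were sought among 16935 genes by the root mean square difference of centred log2(TPM + 0.1) over the 18 libraries. Nearest to SOD2 were IL23A (0.27), AL353621.1 (0.35) and CCL3L1 (0.38). NFE2L2 was nearest to TICAM1 (0.17), E2F7 (0.18) and MTF1 (0.18), and SRXN1 to OGFRL1 (0.26), SGMS1 (0.28) and GPR137B (0.28). These distances include the replicate scatter of each gene.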

How the data were processed

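The deposited files hold whole-number counts of reads per gene with gene lengths. Per the labels the authors trimmed paired reads with Trimmomatic 0.36, aligned them to GRCh38 with STAR 2.5.2b and counted with featureCounts of Subread 1.5.2; libraries were polyA-selected. Strand and multi-mapping settings were not given in the sources used here. Symbols were taken from GENCODE 29. Some genes of the lists are not reported here.

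The 10 genes, the lists and the comparisons were chosen with earlier results of these data known. From the counts, groups were compared with edgeR 4.0.16 (quasi-likelihood test, filterByExpr, TMM) in R 4.3.3 on the 6 libraries of each pair, or 12 for an interaction, over 11 comparisons, with Benjamini-Hochberg adjustment over all genes tested. The SE is the log2 fold change divided by the square root of F. TPM used the deposited lengths. Named were the 10 genes, the hairpin targets, up to 4 called genes of each list by size of change, and the 3 nearest genes in pattern for 3 genes. Tested on simulated data with 200 changed genes, edgeR recovered 87% to 95.5% of them in pairwise comparisons and 74% to 74.5% in interactions. Of the calls made, 3.87% to 10.4% and 5.10% to 6.33% were false. These shares belong to the size of change given to the 200 genes. Recovery of smaller changes was not tested.

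Libraries of 1 replicate number were taken as paired where the correlation of their deviations from the group means exceeded 0.1 for every number. This held in 8 of 9 pairwise comparisons, not for LPS in shNT cells (lowest 0.060) nor for the interactions (lowest 0.017 and 0.027). Alternatives were DESeq2 1.42.0, RLE scaling, no filter, a replicate block, all 18 libraries in 1 fit, a 2-fold minimum and each library left out.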

Additional observations from a re-analysis of the deposited data

Results flagged for a closer look

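In 4 results the 2 knockdown lines differed in the direct edgeR comparison of shNR4A2 with shNR4A3 cells, which shares no shNT library; an effect of the hairpin and a trait of the line cannot be told apart. SLC7A11 stood higher in shNR4A2 cells by a log2 fold change of 1.20 without LPS (38.5 to 49.2 TPM in shNR4A3 libraries, 73.7 to 120.5 TPM in shNR4A2 libraries) and 0.81 with LPS. NQO1 was higher by 0.68 and TXNRD1 by 0.50 without LPS. Each of these was higher in 3 of 3 libraries of the line than in any library of the other, as were 12.7% of all genes without and 11% with LPS. Leaving out single libraries took away the calls of NQO1, TXNRD1 and, with LPS, SLC7A11, and all 18 libraries in 1 fit took away that of NQO1 (adjusted p = 0.15).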

How the results depend on the processing

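Of the values given gene by gene, the calls of NFE2L2 and SOD2 under LPS in the 3 lines, of SRXN1 under LPS in both knockdown lines, of SLC7A11 under LPS in shNR4A3 cells, of NQO1 in unstimulated and SLC7A11 in LPS-treated shNR4A2 against shNT cells, and of SLC7A11 between the unstimulated knockdown lines held under 11 alternatives, those other than a 2-fold minimum. That minimum took away, of these, the calls of NQO1 in unstimulated and SLC7A11 in LPS-treated shNR4A2 against shNT cells and of SLC7A11 under LPS in shNR4A3 cells. Scaling by RLE instead of TMM changed 1 call, GCLC in shNR4A3 cells. With the replicate number as a replicate block the genes called of the 10 went from 3 to 7 for LPS in shNR4A2 cells, from 3 to 6 and from 4 to 7 for shNR4A2 against shNT without and with LPS, from 0 to 3 for shNR4A3 against shNT with LPS, and from 3 to 5 and from 1 to 5 between the knockdown lines without and with LPS; for LPS in shNT cells, where the numbers did not pair the libraries, 4 became 5. The block took away 0 of the calls given gene by gene. Under the block HMOX1 with LPS in shNT cells turned to a log2 fold change of -0.010, and all genes called rose, for shNR4A2 against shNT, from 1019 to 3733 without and from 1085 to 4385 with LPS, and from 1005 to 3401 for shNR4A3 against shNT with LPS, and from 480 to 1800 without and from 362 to 3666 with LPS between the knockdown lines; the cause was not tested. Without a filter on low counts the counts of the 10 became 5 for LPS in shNR4A2 cells, 6 and 7 for shNR4A2 against shNT without and with LPS, 2 for shNR4A3 against shNT with LPS, 5 between the knockdown lines in each state, and 1, SLC7A11, for the LPS response of shNR4A3 cells, where all genes called went from 0 to 138. DESeq2 called 5 for unstimulated shNR4A2 against shNT, 1 for unstimulated shNR4A3 against shNT and 2 between the knockdown lines with LPS. All 18 libraries in 1 fit called 5 for LPS in shNR4A2 cells, 1 for unstimulated shNR4A3 against shNT and 3 between the knockdown lines with LPS. A 2-fold minimum left 2 for LPS in shNT and 3 in shNR4A3 cells, 1 and 2 for shNR4A2 against shNT without and with LPS, 0 for unstimulated shNR4A3 against shNT, and 1 and 0 between the knockdown lines. Leaving out 1 library at a time, the count ran from 2 to 4, 3 to 6 and 4 to 8 for LPS in shNT, shNR4A2 and shNR4A3 cells. It ran from 1 to 6 for shNR4A2 against shNT in each state, and from 0 to 4 for LPS-treated shNR4A3 against shNT. For unstimulated shNR4A3 against shNT the count fell from 2 to 1 whichever library was left out. Between the knockdown lines it ran from 1 to 5 without and from 0 to 1 with LPS. All genes called then ran from 517 to 1128 and from 342 to 1477 for shNR4A2 against shNT without and with LPS, from 649 to 975 and from 383 to 1693 for shNR4A3 against shNT, and from 249 to 470 and from 94 to 217 between the knockdown lines. Single values that changed sign in this way were uncalled, and some of them follow. HMOX1 with LPS ran from -0.32 to 0.31 in shNT, -0.24 to 0.43 in shNR4A2 and -0.11 to 0.34 in shNR4A3 cells. SLC7A11 ran from -0.0028 to 0.32 with LPS in shNT, and from -0.16 to 0.12 in shNR4A3 against shNT with LPS. TXN in unstimulated shNR4A2 against shNT ran from -0.060 to 0.060. TPM computed with TMM-scaled library sizes moved 15 of 60 group means by more than 1 SD. With 3 libraries a group, an exact test on a single gene could not go below p = 0.1, and SRXN1 and GCLC rest on the fewest reads of the 10.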
